A study of Mus musculus with 16 samples.

Results

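Pparg, Ppard, Ppargc1a, Ppargc1b, Ucp1, Ucp2, Fabp4, Fabp5, Cd36 and Plin2 form a small group of genes for lipid sensing, fatty acid handling and mitochondrial uncoupling. They were taken by symbol from the probe sets of an array study of macrophages that lack Bhlhe40. Bhlhe40 is a transcriptional repressor of the basic helix-loop-helix family. The list was drawn up because Pparg lay higher and Ucp1 lower in the mutants, so the mutant minus WT values of these genes are given as a description, with no test. Of the 10 genes, 9 had a probe set with a single symbol, among 19938 genes with one, and Ucp2 was not analysed here. Of those 9, 8 passed the filter on dim signal and belong to the 11634 genes tested; the exception was Ppargc1a.

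Peroxisome proliferator-activated receptors (PPARs) are nuclear receptors that bind fatty acids and their derivatives, pair with retinoid X receptors and switch on genes for lipid uptake, storage and oxidation. PPARγ drives fat cell formation and is needed for alveolar macrophages to mature, and in macrophages exposed to interleukin-4 PPARs and the coactivator PGC-1β take part in the change to an alternatively activated, fatty acid burning state. UCP1 is the proton carrier of brown fat mitochondria, which turns the energy of fatty acid oxidation into heat.

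All cells came from male C57BL/6 mice. Alveolar macrophages (AM), sorted from digested lung, were taken from untreated Bhlhe40-/- mice (KO, 2 arrays) and Bhlhe40+/+ mice (WT, 2 arrays). Large peritoneal macrophages (LPM), sorted from lavage of the peritoneal cavity, came from untreated KO mice (3 arrays) and untreated WT mice (3 arrays), called naive here. Further LPM came from mice injected with IL-4c, a long-acting form of interleukin-4, on days 0 and 2 and killed on day 4: 2 arrays of KO mice, 2 of mice labelled Bhlhe40LysM and 2 of WT mice. Bhlhe40LysM (LysM below) stands for mice with LysM-Cre, which is active in the myeloid cells at large and not in LPM alone, and a Bhlhe40 gene flanked by loxP sites on both alleles. No label gives an age or tells whether a replicate was 1 mouse or a pool, so p-values here reflect no more than the spread among these arrays, which may be technical.

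Array medians lay between 4.79 and 4.93 on the log2 scale, and replicate arrays correlated at 0.989 to 0.995 over the probe sets (probe sets are no independent replicates). All 9 measured LPM markers exceeded the array median on every LPM array, with array means of 9.50 to 10.94 on LPM arrays against 5.09 to 5.63 on AM arrays, and all 9 measured AM markers did so on every AM array (4.48 to 5.97 on LPM arrays, 10.35 to 10.63 on AM arrays). Bhlhe40 read 7.53 and 7.75 in KO AM against 9.57 and 10.07 in WT AM, and 6.79, 6.50 and 7.11 in naive KO LPM against 8.66, 8.75 and 8.64 in naive WT LPM. Under IL-4c it read 8.01 and 7.90 in KO LPM and 8.75 and 8.83 in LysM LPM, against 8.77 and 8.99 in WT LPM. The IL-4c KO difference was -0.93 ± 0.19 (adjusted p = 0.013, limma), a call lost in 3 of 12 alternatives, beside -1.89 in naive LPM. In KO LPM the signal rose by 1.16 with IL-4c (adjusted p = 0.00011, limma). The LysM arrays were therefore not lowered for the targeted gene (-0.09 ± 0.19 SE, adjusted p = 0.84), and no source used here tells whether its probes fall in the deleted stretch. Directions drawn from the LysM arrays rest on their label.

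Promoters are shown for Ucp1 and Pparg, the genes for whose mutant minus WT values the list was drawn up, and for Plin2, whose promoter was the only one among the listed genes to hold the E-box that Bhlhe40 is known to bind. The sequences are from RefSeq (GRCm38.p6), from 250 bases before to 50 bases after the annotated start, printed 5′ to 3′ on the strand of the gene. Capitals mark AGGTCA, the core hexamer that nuclear receptors recognise (printed as TGACCT where it lies on the opposite strand), and the E-box CACGTG. The regions are chr8:83290098-83290397 (plus strand) for Ucp1, chr6:115360894-115361193 and chr6:115362099-115362398 (plus strand) for the first and second promoter entries of Pparg, and chr4:86670010-86670309 (minus strand) for Plin2. For Pparg and Plin2 the starts of these entries lie inside the gene spans given below and not at their ends.
Ucp1 promoter 1: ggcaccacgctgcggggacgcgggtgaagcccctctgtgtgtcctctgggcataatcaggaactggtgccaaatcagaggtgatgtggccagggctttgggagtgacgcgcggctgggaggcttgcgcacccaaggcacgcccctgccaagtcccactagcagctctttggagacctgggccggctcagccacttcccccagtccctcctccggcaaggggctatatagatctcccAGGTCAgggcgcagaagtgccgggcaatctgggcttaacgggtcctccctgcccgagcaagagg
Pparg promoter 1: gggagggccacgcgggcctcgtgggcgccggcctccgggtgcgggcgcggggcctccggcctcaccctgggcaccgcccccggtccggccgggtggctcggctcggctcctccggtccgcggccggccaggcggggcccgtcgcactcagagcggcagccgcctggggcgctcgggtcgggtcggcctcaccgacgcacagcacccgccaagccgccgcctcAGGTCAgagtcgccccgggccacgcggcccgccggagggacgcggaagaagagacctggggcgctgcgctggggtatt
Pparg promoter 2: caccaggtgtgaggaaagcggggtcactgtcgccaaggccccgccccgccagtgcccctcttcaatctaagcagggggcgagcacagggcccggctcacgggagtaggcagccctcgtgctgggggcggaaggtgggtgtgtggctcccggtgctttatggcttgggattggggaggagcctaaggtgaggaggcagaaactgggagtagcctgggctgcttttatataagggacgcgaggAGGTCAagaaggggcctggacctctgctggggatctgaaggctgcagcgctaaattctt
Plin2 promoter 1: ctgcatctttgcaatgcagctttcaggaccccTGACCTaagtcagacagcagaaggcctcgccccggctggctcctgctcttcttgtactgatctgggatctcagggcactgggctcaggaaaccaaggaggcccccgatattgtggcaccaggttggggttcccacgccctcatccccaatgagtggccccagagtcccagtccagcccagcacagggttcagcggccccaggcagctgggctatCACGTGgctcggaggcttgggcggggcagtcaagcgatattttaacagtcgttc

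Of the 10 genes, 7 had an entry in the promoter table, with 9 promoters in all, and Fabp4, Fabp5 and Ppargc1b had none. The hexamer, searched on both strands, was found in 5 of the 9 promoters, those printed above and that of Cd36, and in 16.3% of all 32851 mouse promoters of the same length. The hexamer was added to the motifs after these promoters were read, so nothing is read from its count. It lay at bases -14 to -9 in Ucp1, -28 to -23 and -9 to -4 in the first and second Pparg promoters, -218 to -213 in Plin2 and -228 to -223 in Cd36, counted from the first transcribed base as 0. The full PPAR element, a pair of hexamers separated by 1 base (AGGTCANAGGTCA, so that it contains the hexamer), was in 0 of the 9 promoters and in 0.0396% of all. CACGTG was in 1 of the 9, at -4 to 1 of Plin2, and in 7.15% of all. These matches only describe the letters in these windows. The single Pparg probe set does not separate transcripts from its 3 annotated starts.

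Pparg (Entrez 19016) spans 115360879 to 115490404 on chromosome 6. Its log2 signal was 10.48 and 10.56 in KO AM against 10.30 and 10.22 in WT AM. In naive LPM it was 5.34, 5.51 and 5.90 in KO, against 4.60, 4.69 and 4.85 in WT. Under IL-4c it was 6.00 and 5.94 in KO LPM and 6.01 and 5.69 in LysM LPM, against 5.09 and 4.77 in WT LPM. AM were thus far brighter than any LPM, and within LPM every mutant array lay above every WT array of the same treatment.

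As mutant minus WT differences, Pparg lay 0.87 ± 0.15 (SE) higher in naive KO LPM (1.82-fold). It lay 1.04 ± 0.18 higher in IL-4c KO LPM (2.06-fold) and 0.92 ± 0.18 higher in IL-4c LysM LPM (1.89-fold). In AM the difference was 0.26 ± 0.18. The KO arrays did not overlap the WT arrays there, as was so for 36.4% of all tested genes. The KO minus WT difference in naive LPM exceeded that in AM by 0.61 ± 0.23, and those under IL-4c and in naive LPM differed by 0.17 ± 0.23. In order of group mean, KO AM (10.52) and WT AM (10.26) came first, followed by IL-4c KO LPM (5.97), IL-4c LysM LPM (5.85), naive KO LPM (5.58), IL-4c WT LPM (4.93) and naive WT LPM (4.71). Neighbours in this order overlapped among IL-4c KO, IL-4c LysM and naive KO LPM, and between IL-4c WT and naive WT LPM, but not between naive KO and IL-4c WT LPM. None of the 3 naive WT LPM arrays and 1 of the 2 IL-4c WT LPM arrays exceeded its array median for Pparg, so the fold values against these groups are not exact. The highest LPM array read 6.01 for Pparg, and the lowest AM array 10.22.

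Ppard, which encodes the widely expressed PPARδ (chromosome 17, 28232754 to 28301469), hardly varied. Its signal ran from 5.88 to 6.42 over the 16 arrays. The 4 mutant minus WT differences were 0.06, -0.21, 0.03 and 0.02 in AM, naive LPM, IL-4c KO LPM and IL-4c LysM LPM. Their SEs were 0.16, 0.13, 0.16 and 0.16. Its IL-4c minus naive differences were 0.17 in KO LPM (adjusted p = 0.38) and -0.06 in WT LPM (adjusted p = 0.76, interval -0.37 to 0.25). Its naive LPM minus AM differences were -0.34 in KO (adjusted p = 0.076) and -0.08 in WT (adjusted p = 0.72). The sign of 6 of these 8 values turned when some single array was left out.

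Of the 2 PPAR coactivator genes, Ppargc1a (PGC-1α, the cofactor of brown fat and muscle mitochondria) had 2 probe sets, which read 2.04 to 2.66 and 3.03 to 3.60 and exceeded the array median on 0 of 16 arrays. Ppargc1b (PGC-1β) read 6.27 and 6.06 in IL-4c KO LPM and 6.04 and 7.13 in IL-4c LysM LPM, against 6.44 and 6.30 in IL-4c WT LPM. In naive LPM it read 4.81, 4.73 and 4.96 in KO against 4.71, 4.70 and 5.03 in WT, and in AM 5.65 and 5.51 in KO against 5.20 and 5.15 in WT. All IL-4c arrays lay above all others for Ppargc1b, while the genotypes overlapped in naive LPM, the IL-4c KO arrays lay just below the IL-4c WT arrays and the LysM arrays lay on both sides of them. With IL-4c it rose by 1.33 in KO LPM (SE 0.22, adjusted p = 0.00027, limma) and by 1.56 in WT LPM (SE 0.22, adjusted p = 4.5e-05, limma). The naive LPM minus AM difference was -0.74 in KO (adjusted p = 0.013) and -0.36 in WT (adjusted p = 0.23). The fall in KO lost its call without AM KO replicate 1 (-0.67, adjusted p = 0.099).

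Ucp1 (chromosome 8, 83290348 to 83298456) was brightest in IL-4c WT LPM. It read 5.37 and 7.0 in IL-4c KO LPM and 4.93 and 6.56 in IL-4c LysM LPM, against 8.93 and 9.74 in IL-4c WT LPM. In naive LPM it read 3.76, 4.04 and 4.24 in KO against 4.62, 3.80 and 4.37 in WT. In AM it read 5.22 and 5.38 in KO against 5.44 and 4.85 in WT. Under IL-4c all 4 mutant arrays lay below both WT arrays, and each mutant group had 1 array within the range of the AM arrays and 1 above it. In AM and in naive LPM the genotypes overlapped, and on all 6 naive LPM arrays Ucp1 was below the array median.

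Under IL-4c the mutant minus WT difference of Ucp1 was -3.15 ± 0.50 in KO and -3.59 ± 0.50 in LysM LPM. In AM it was 0.15 ± 0.50 and in naive LPM -0.25 ± 0.41. The size under IL-4c depended on single arrays: in KO it was -2.33 without replicate 1 and -3.96 without replicate 2, and in LysM -2.77 without replicate 1 and -4.40 without replicate 2. The IL-4c minus naive difference was 2.17 ± 0.45 in KO LPM (2.99 without IL-4c KO replicate 1 and 1.36 without replicate 2) and 5.07 ± 0.45 in WT LPM. The KO minus WT difference under IL-4c less that in naive LPM was -2.90 ± 0.64. By group mean the order was IL-4c WT LPM (9.33), IL-4c KO LPM (6.19), IL-4c LysM LPM (5.75), KO AM (5.30), WT AM (5.14), naive WT LPM (4.26) and naive KO LPM (4.01). Only the first and second places, and WT AM and naive WT LPM, were neighbours that did not overlap. The KO and LysM comparisons share the same 2 WT arrays.

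**Figure D1:**
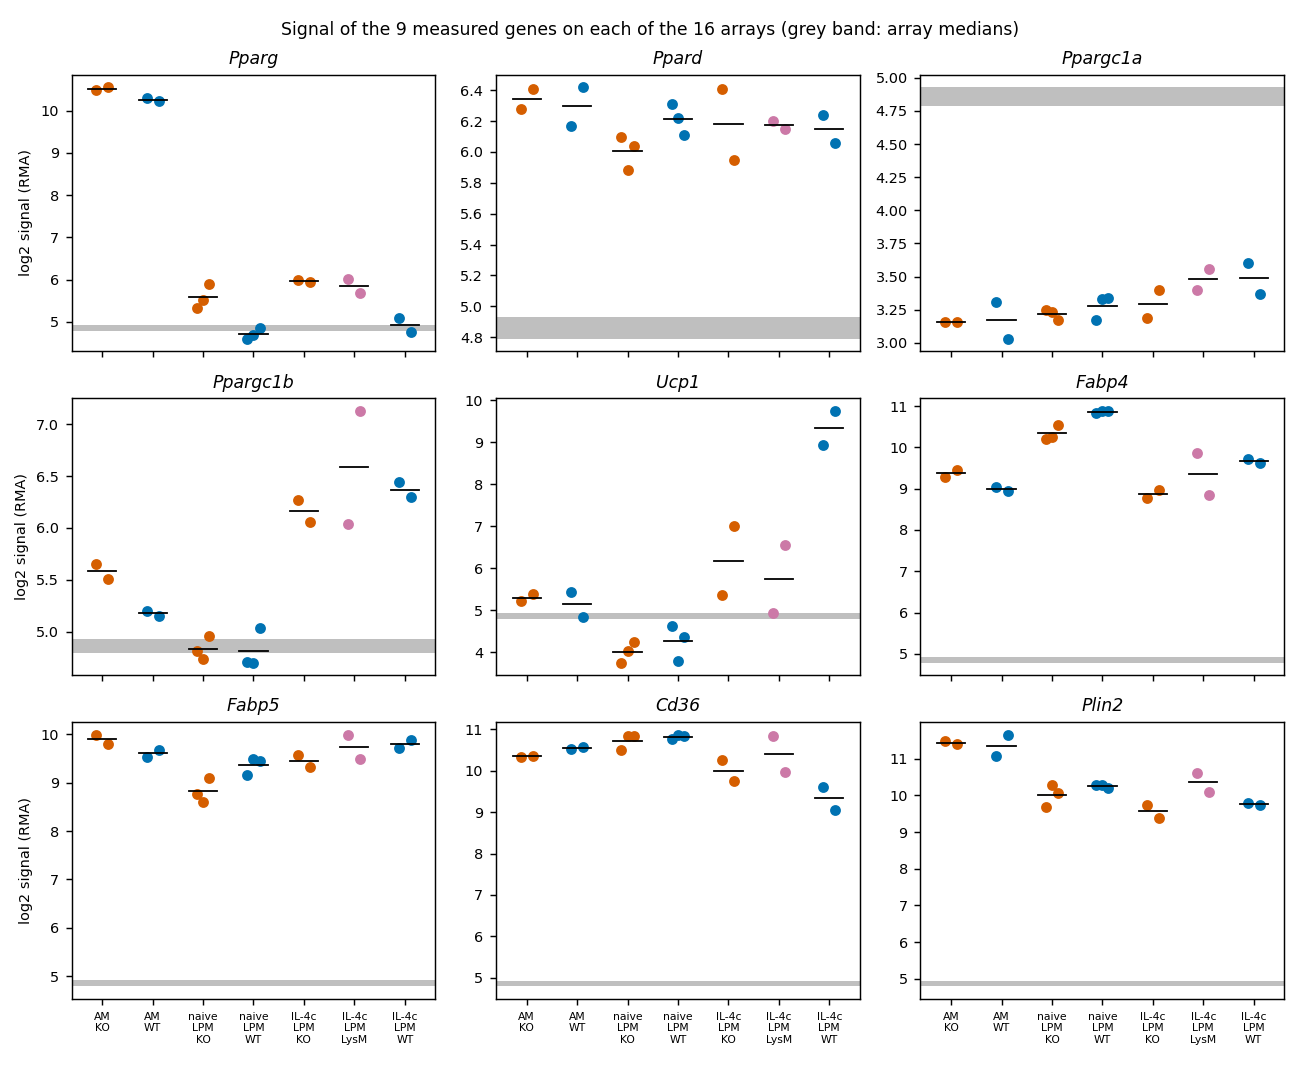
Log2 signal (vertical axes, RMA) of the 9 measured genes on each of the 16 arrays, by group along the horizontal axes. Points are arrays (orange KO, pink LysM, blue WT), black lines group means and the grey band the range of array medians (4.79 to 4.93). Ucp1 was highest in IL-4c WT LPM (8.93 and 9.74), Pparg was high in AM (10.22 to 10.56), and Ppargc1a lay below the grey band everywhere.

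Fabp4, a cytosolic carrier of fatty acids and a classical PPARγ target (chromosome 3, 10204342 to 10208616), was brightest in naive LPM. It read 10.20, 10.26 and 10.55 in naive KO LPM against 10.82, 10.88 and 10.88 in naive WT LPM, and 9.29 and 9.45 in KO AM against 9.05 and 8.94 in WT AM. Under IL-4c it read 8.77 and 8.97 in KO LPM and 9.87 and 8.84 in LysM LPM, against 9.72 and 9.61 in WT LPM. KO arrays lay below WT arrays in LPM of both treatments and above them in AM, while the LysM arrays lay on both sides of the WT arrays. The KO minus WT differences were 0.38 ± 0.23 in AM, -0.53 ± 0.19 in naive LPM and -0.80 ± 0.23 in IL-4c LPM, and the LysM minus WT difference was -0.31 ± 0.23. With IL-4c Fabp4 fell by 1.47 in KO LPM (SE 0.21, adjusted p = 7.8e-05) and by 1.20 in WT LPM (SE 0.21, adjusted p = 0.00029). It was 0.97 higher in naive LPM than in AM of KO mice (adjusted p = 0.0015) and 1.87 higher in WT mice (adjusted p = 2e-06).

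Fabp5, the sister carrier (chromosome 3, 10012585 to 10016610), had 2 probe sets. The brighter one read 9.99 and 9.80 in KO AM against 9.54 and 9.68 in WT AM, and 8.77, 8.61 and 9.09 in naive KO LPM against 9.16, 9.49 and 9.44 in naive WT LPM. Under IL-4c it read 9.58 and 9.33 in KO LPM and 9.99 and 9.49 in LysM LPM, against 9.71 and 9.89 in WT LPM. As for Fabp4, KO lay above WT in AM (0.29 ± 0.19) and below it in naive LPM (-0.54 ± 0.16) and in IL-4c LPM (-0.34 ± 0.19). On the dimmer probe set the same differences were 0.32, -0.62 and -0.33. With IL-4c Fabp5 rose by 0.64 in KO LPM (SE 0.17, adjusted p = 0.0095), and this call was lost without IL-4c KO replicate 1 (0.51, adjusted p = 0.11). The IL-4c minus naive difference in WT LPM was 0.44 ± 0.17 (adjusted p = 0.056). Between tissues, Fabp5 fell by 1.07 in naive KO LPM relative to KO AM (adjusted p = 0.00011), and the difference between naive WT LPM and WT AM was -0.25 (adjusted p = 0.3).

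Cd36, the scavenger receptor that also carries long-chain fatty acids across the membrane (chromosome 5, 17781690 to 17888959), read 10.26 and 9.75 in IL-4c KO LPM and 10.83 and 9.97 in IL-4c LysM LPM, against 9.62 and 9.05 in IL-4c WT LPM. In naive LPM it read 10.50, 10.84 and 10.84 in KO against 10.77, 10.87 and 10.84 in WT. In AM it read 10.34 and 10.36 in KO against 10.52 and 10.57 in WT. The mutants lay above WT under IL-4c, overlapped with WT in naive LPM and lay just below WT in AM. The differences were 0.67 ± 0.24 in IL-4c KO, 1.07 ± 0.24 in IL-4c LysM, -0.10 ± 0.20 in naive LPM and -0.19 ± 0.24 in AM. The IL-4c KO value was 0.39 without IL-4c WT replicate 2 and 0.42 without IL-4c KO replicate 1, and the LysM value 0.64 without LysM replicate 1. With IL-4c Cd36 fell by 0.72 in KO LPM (SE 0.22, adjusted p = 0.018) and by 1.49 in WT LPM (SE 0.22, adjusted p = 6.8e-05). The call in KO was lost without naive KO replicate 2 (adjusted p = 0.055), naive KO replicate 3 (adjusted p = 0.05) or IL-4c KO replicate 2 (-0.47, adjusted p = 0.2). Its naive LPM minus AM differences were 0.38 in KO (adjusted p = 0.2) and 0.28 in WT (adjusted p = 0.35).

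Plin2, which coats lipid droplets in most cell types (chromosome 4, 86626910 to 86670217), was brightest in AM. It read 11.48 and 11.39 in KO AM against 11.06 and 11.65 in WT AM, and 9.69, 10.28 and 10.07 in naive KO LPM against 10.29, 10.27 and 10.20 in naive WT LPM. Under IL-4c it read 9.73 and 9.39 in KO LPM and 10.62 and 10.08 in LysM LPM, against 9.79 and 9.74 in WT LPM. LysM arrays lay above the WT arrays (0.58 ± 0.22, but 0.31 without LysM replicate 1) and KO arrays just below them (-0.21 ± 0.22, but -0.04 without IL-4c KO replicate 2 and -0.38 without replicate 1). In AM and naive LPM the genotypes overlapped, with differences of 0.08 ± 0.22 and -0.24 ± 0.18. Plin2 fell by 1.42 in naive LPM relative to AM in KO (adjusted p = 2.5e-05) and by 1.10 in WT (adjusted p = 0.00033). Its IL-4c minus naive differences were -0.45 in KO LPM (adjusted p = 0.088) and -0.48 in WT LPM (adjusted p = 0.066).

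**Figure D2:**
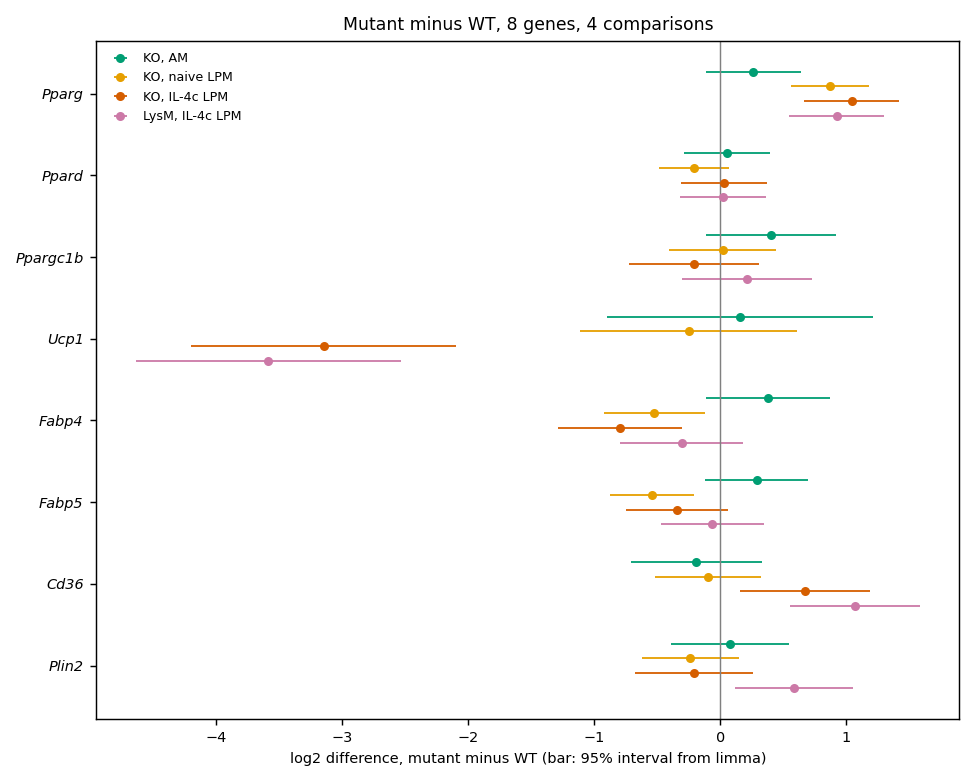
Mutant minus WT difference in log2 signal (horizontal axis) of the 8 tested genes (rows) in the 4 comparisons (colours). Points are estimates and bars 95% intervals from limma, shown as a description and not as tests, since such values chose the list. Pparg lay between 0.87 and 1.04 in the 3 LPM comparisons, Ucp1 at -3.15 and -3.59 under IL-4c, and Fabp4 and Fabp5 above 0 in AM and below 0 in LPM.

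Over the 8 tested genes, arrays of the genotypes compared did not overlap for 5 of 8 genes in AM (background 36.4%), 4 of 8 in naive LPM (23%), 7 of 8 in IL-4c KO LPM (45.2%) and 4 of 8 in IL-4c LysM LPM (49.6%). These counts include the genes by whose values the list was drawn up, and nothing is read from them. In IL-4c KO LPM 2 of the 7 lay higher, Pparg and Cd36, and 5 lower, against 20.4% and 24.8% of all genes.

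For the comparisons within a genotype the 6 tested genes other than Pparg and Ucp1 were counted. With IL-4c 4 of 6 changed in KO LPM, where 37.3% of all genes did (21.9% higher and 15.4% lower), with Ppargc1b and Fabp5 higher and Fabp4 and Cd36 lower. In WT LPM 3 of 6 changed (background 41.2%, with 22% higher and 19.2% lower), Ppargc1b higher and Fabp4 and Cd36 lower. Between naive LPM and AM 4 of 6 changed in KO (background 40%, with 17.3% higher and 22.8% lower) and 2 of 6 in WT (38.3%, with 21.2% higher and 17.1% lower), with Fabp4 higher in both and Plin2 lower in both, and Ppargc1b and Fabp5 also lower in KO. These shares are over few genes. The 2 IL-4c comparisons each use their own naive arrays and no array in common.

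**Figure D3:**
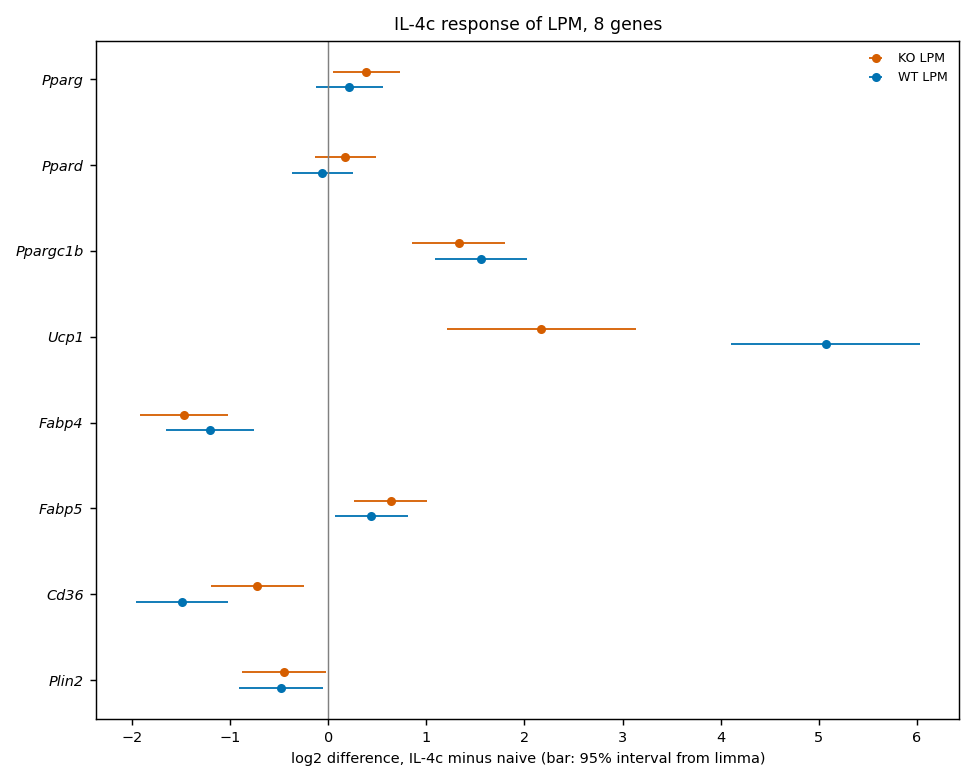
IL-4c minus naive difference in log2 signal of LPM (horizontal axis) for the 8 tested genes (rows), with KO in orange above WT in blue; points are estimates and bars 95% intervals from limma. Ucp1 lay at 2.17 in KO and 5.07 in WT, and Cd36 at -0.72 in KO and -1.49 in WT, while Ppargc1b and Fabp4 lay close together in both genotypes.

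The other genes of these pathways were taken from 6 lists with 117 genes, of which 106 were measured and 84 tested: PPAR partners and coregulators, PPAR targets, fatty acid uptake and activation, lipid droplets and lipolysis, fatty acid oxidation, and uncoupling and thermogenic genes. Against WT, 0 of the 84 changed in KO AM (limma, where 0.12% of all tested genes did), 5 had an unadjusted p under 0.05, and the median difference was 0.07 beside 0.05 for all tested genes. In naive KO LPM, where 1.88% of all genes changed, 1 of the 84 fell, Pdk4, the PPAR target that blocks glucose oxidation. It read 4.57, 5.65 and 5.61 in KO against 7.45, 6.42 and 6.81 in WT, a fall of 1.62 (SE 0.38, adjusted p = 0.041). The Pdk4 call was lost when any 1 of the 6 naive LPM arrays was left out (adjusted p of 0.056 to 0.16).

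In IL-4c KO LPM 5 of the 84 rose and 3 fell, where 3.63% of all tested genes changed. The fall of Plin1, which coats the large lipid droplets of fat cells and is itself a PPARγ target, was the one call that held under every alternative. Plin1 read 5.26 and 5.65 in IL-4c KO LPM and 4.85 and 5.44 in IL-4c LysM LPM, against 6.69 and 6.94 in IL-4c WT LPM. It read 4.99, 5.09 and 4.80 in naive KO LPM against 5.02, 4.81 and 5.14 in naive WT LPM. As for Ucp1, both IL-4c WT arrays thus lay above every IL-4c mutant array for Plin1. It fell by 1.36 in KO (SE 0.20, adjusted p = 0.0013) and by 1.66 in LysM (SE 0.20, adjusted p = 0.00017), while with IL-4c it rose by 0.49 in KO LPM (adjusted p = 0.046) and by 1.82 in WT LPM (adjusted p = 1.7e-06). The KO minus WT difference of Plin1 under IL-4c differed from that in naive LPM by -1.33 (SE 0.26, adjusted p = 0.028), the only one of the 84 genes called for this interaction, where 0.55% of all genes were. That call was lost without naive WT replicate 2, naive KO replicate 1 or 2, IL-4c WT replicate 2 or IL-4c KO replicate 1, with adjusted p up to 0.15.

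The other IL-4c KO falls were Eci2 (-0.65) and Acad9 (-0.60), both of mitochondrial fatty acid oxidation. The rises were Fabp3, another fatty acid carrier (1.31, adjusted p = 0.027), the creatine kinase Ckb (1.0), the LXRα gene Nr1h3 (0.90), Lpin1, an enzyme of triglyceride synthesis (0.60), and the coactivator Ncoa3 (0.49). All 25 tested genes of fatty acid oxidation together had a median of -0.26 against -0.02 for all genes, with 2 lower and 23 not called. Each of these 7 calls was lost when some single array was left out. The count of 8 calls was 1 without IL-4c WT replicate 2, 1 without IL-4c KO replicate 1 and 3 without IL-4c WT replicate 1.

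In IL-4c LysM LPM 8 of the 84 rose and 2 fell, a share near the 8.67% of all tested genes that changed there. Olr1, a receptor for oxidised lipoprotein, rose by 3.28 (SE 0.57, adjusted p = 0.0025), with 8.91 and 7.35 in LysM LPM against 5.23 and 4.48 in WT LPM. The IL-4c KO arrays read 8.05 and 5.66 for Olr1, a KO minus WT difference of 2.00 (adjusted p = 0.064). Hilpda, which inhibits droplet lipolysis, rose by 2.10 (adjusted p = 0.012), Fabp3 by 1.88 (adjusted p = 0.0017), Lpin1 by 1.09, Tmem26, a marker of beige fat cells, by 0.89 and Ckb by 0.81. Plin1 and Acad9 (-0.57) fell. Tmem26 exceeded the array median only on IL-4c mutant arrays, so its direction was fixed by the filter. The calls of Hilpda, Tmem26, Ckb and Acad9 were each lost without some single array. The count of 10 calls was 5 without IL-4c WT replicate 1, 6 without IL-4c WT replicate 2 and 6 without LysM replicate 1. Fabp3 read 8.60 and 7.56 in IL-4c KO LPM and 8.88 and 8.40 in IL-4c LysM LPM, against 7.19 and 6.33 in IL-4c WT LPM.

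With IL-4c several genes of the lists changed in the same direction in both genotypes. Gatm, the first enzyme of creatine synthesis, rose by 4.29 in KO LPM (7.92 and 8.09 under IL-4c against 3.82, 3.35 and 4.00 naive) and by 4.77 in WT LPM (8.35 and 8.74 against 4.02, 3.57 and 3.74). All naive values of Gatm lay below the array medians, so these sizes are not exact. Gatm passed the filter only through IL-4c arrays, which fixed its direction in advance. Cox7a1, a respiratory chain subunit of brown fat and muscle, rose by 1.19 in KO and 1.64 in WT. Lpl, the lipoprotein lipase, fell, with differences of -1.96 in KO (adjusted p = 0.00028) and -2.39 in WT (adjusted p = 3.3e-05). Pdk4 fell too, with -1.31 in KO and -2.07 in WT, and its call in KO was lost without naive KO replicate 2 or 3 or either IL-4c KO array (adjusted p of 0.074 to 0.11). Of 25 tested oxidation genes 9 rose in KO and 13 in WT, with 0 lower in either, beside 21.9% and 22% of all genes higher. The list medians were 0.26 in KO and 0.34 in WT against 0.04 and 0.02 for all genes. Pex11a, a peroxisome membrane protein, rose by 0.93 in KO and 1.18 in WT, and Acadsb by 0.74 in KO and Acad9 by 0.97 in WT. The Acadsb call was lost without IL-4c KO replicate 1 (0.49, adjusted p = 0.17).

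Of 14 tested PPAR partners and coregulators 3 rose and 6 fell with IL-4c in KO, where 21.9% of all genes rose and 15.4% fell. In WT 1 rose and 9 fell, where 22% of all genes rose and 19.2% fell. The corepressor Nrip1 fell, with -0.90 in KO and -1.47 in WT, as did Ncoa1 in KO (-0.79) and the acetyltransferase Ep300 in WT (-1.06). The Nrip1 call in KO was lost without IL-4c KO replicate 2 (adjusted p = 0.077). The PPAR partner Rxra rose by 0.61 in KO (adjusted p = 0.00074) and Esrra, the oestrogen-related receptor that works with PGC-1 coactivators, by 0.85 in WT (adjusted p = 0.00096). Of the PPAR targets 2 rose and 2 fell of 12 in KO, and 1 rose and 3 fell in WT. The stearoyl-CoA desaturase Scd1 rose by 1.38 in KO and 1.31 in WT, and Hilpda by 2.24 in KO (adjusted p = 0.00083). In the droplet list Plin3 rose by 1.17 in KO and G0s2, an inhibitor of lipolysis, by 1.04 in WT, a call that was lost without IL-4c WT replicate 2 (adjusted p = 0.053). In all, 25 of 84 rose and 13 fell in KO, and 25 rose and 19 fell in WT; the falls are near the shares of all genes given above.

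**Figure D4:**
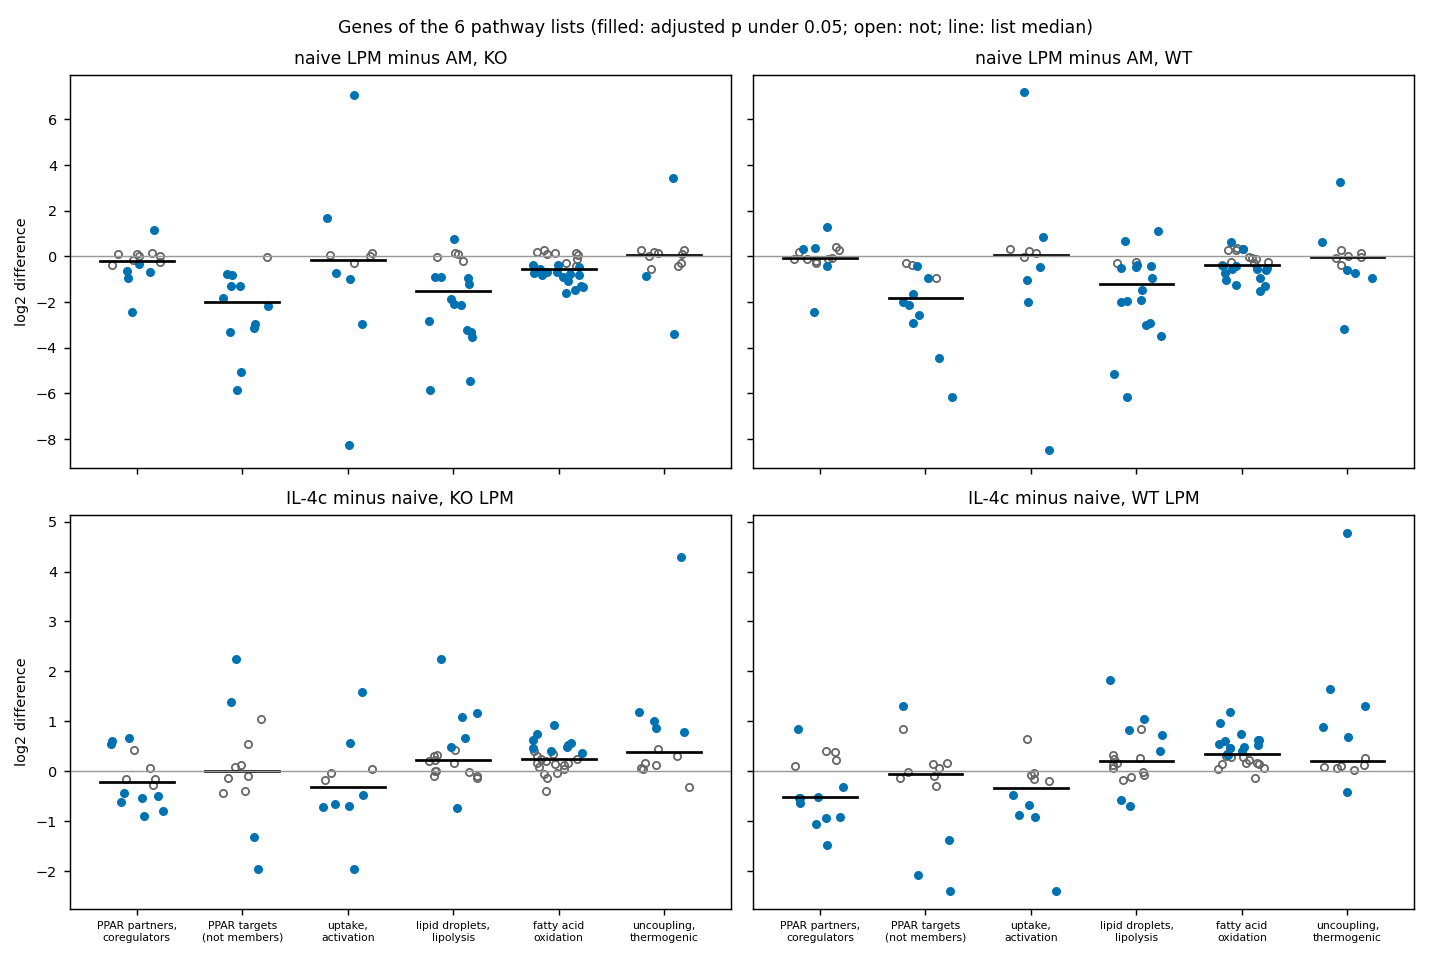
Log2 difference (vertical axes) of the tested genes of the 6 lists (horizontal axes), for naive LPM minus AM (upper panels) and IL-4c minus naive LPM (lower panels), KO left and WT right. Filled points have an adjusted p under 0.05, open points do not, and bars are list medians; PPAR targets had medians of -2.00 in KO and -1.82 in WT between naive LPM and AM.

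Between naive LPM and AM, Pparg differed by -4.94 ± 0.16 in KO and -5.55 ± 0.16 in WT. Most PPAR targets outside the listed genes were lower in LPM. Of 12 tested, 11 fell in KO and 9 in WT, with 0 higher in either, against 22.8% and 17.1% of all genes lower. A gene above the array medians on AM arrays alone passes the filter through AM, and can hardly come out higher in LPM. Cidec was such a gene, as was Mgll in the droplet list below, so the counts of both lists are a description only. Fabp4, a PPARγ target among the listed genes and so outside this count, was higher (0.97 in KO and 1.87 in WT). Plin2 was lower (-1.42 in KO and -1.10 in WT), and Cd36 was not called in either genotype. Cidec, which fuses lipid droplets, read 4.54, 4.82 and 4.47 in naive KO LPM against 10.51 and 10.45 in KO AM, a fall of 5.87. It read 4.19, 4.20 and 4.11 in naive WT LPM against 10.09 and 10.55 in WT AM, a fall of 6.16. Olr1 fell as well (-5.06 in KO and -4.44 in WT). Of 18 droplet and lipolysis genes 13 fell and 1 rose in KO, and 14 fell and 2 rose in WT, with Mgll, the monoacylglycerol lipase, at -5.46 in KO and -5.13 in WT, and Lipe, the hormone-sensitive lipase, at 0.75 in KO and 1.10 in WT.

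Fatty acid carriers were split between the tissues. Fabp1 was lower in LPM than in AM (-8.25 in KO and -8.48 in WT), and Fabp7 higher (7.08 in KO and 7.18 in WT). Fabp7 read 11.06, 10.98 and 11.14 in naive KO LPM against 4.04 and 3.92 in KO AM, and 11.21, 11.20 and 11.04 in naive WT LPM against 4.01 and 3.92 in WT AM. Of the uncoupling and thermogenic list, Ucp3, the muscle uncoupling protein, fell, with -3.37 in KO and -3.18 in WT, and read 3.22 to 3.87 on the naive LPM arrays, below the array medians, while Ckb rose by 3.42 and 3.26. Where a gene lay below the array medians in 1 tissue, as Fabp1, Fabp7, Ucp3, Mgll and Cidec did, the size of the difference is not exact. These genes passed the filter only through the other tissue, which fixed the direction of their differences in advance. Lung epithelial markers had array means of 3.86 to 4.10 in naive KO LPM against 6.03 to 6.26 in KO AM, and 3.82 to 4.11 in naive WT LPM against 5.69 to 6.44 in WT AM. Neutrophil markers had array means of 3.91 to 4.10 on naive LPM arrays against 4.99 to 5.14 on AM arrays. Mesothelial markers had 4.19 to 4.51 on naive LPM arrays against 5.37 to 5.45 on AM arrays. Krt19, which is on the AM marker list too, was the only mesothelial marker called, at -6.53 in KO and in WT. All 3 tested B cell markers were higher in naive LPM in both genotypes, where 17.3% of all genes were higher in KO and 21.2% in WT. Markers of monocytes, small macrophages and dendritic cells were called in both directions. Clec10a was higher in naive LPM (3.21 in KO and 2.41 in WT), as were Irf4 (1.02 and 1.77) and Ccr2 (1.22 and 1.02). Clec9a was lower (-2.80 in KO and -2.29 in WT). The part of other cells in these tissue differences was not tested.

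Markers of other cells were set beside the IL-4c results because Ucp1, Plin1 and Fabp4 are known from fat cells. Of 10 measured adipocyte markers 2 exceeded the array median on all arrays of each IL-4c group, Plin1 itself and Lipe. Array means of the list were 4.21 to 4.37 in IL-4c KO LPM and 4.21 to 4.27 in IL-4c LysM LPM against 4.36 to 4.41 in IL-4c WT LPM, and 4.23 to 4.34 in naive KO LPM against 4.13 to 4.22 in naive WT LPM. Adipoq, the defining adipocyte hormone, read 2.71 to 3.14 on the IL-4c mutant arrays against 2.76 to 2.81 on the IL-4c WT arrays, and exceeded the median on 0 of 16 arrays. The array means of 7 endothelial markers, a cell type that also takes up fatty acids, were 4.49 to 4.50 in IL-4c KO LPM and 4.46 to 4.66 in IL-4c LysM LPM against 4.57 to 4.63 in IL-4c WT LPM. In naive LPM these means were 4.01 to 4.30 in KO and 4.10 to 4.13 in WT. Of these markers Pecam1, also made by macrophages, fell by 0.77 in IL-4c KO LPM (adjusted p = 0.026, limma). With IL-4c Pecam1 rose by 2.08 in KO LPM and by 3.10 in WT LPM, and both rises were called. Of 3 tested B cell markers all fell with IL-4c in both genotypes, where 15.4% of all genes fell in KO and 19.2% in WT. Monocyte, small macrophage and dendritic cell markers had array means of 4.84 to 4.91 in IL-4c KO LPM and 4.85 to 5.04 in IL-4c LysM LPM against 4.77 to 4.90 in IL-4c WT LPM, and 4.51 to 4.69 in naive KO LPM against 4.45 to 4.56 in naive WT LPM. In this list Clec10a rose by 1.41 (adjusted p = 0.016) and Irf4 fell by 0.80 (adjusted p = 0.0049) in IL-4c LysM LPM, and Irf4 fell by 0.61 in naive KO LPM (adjusted p = 0.019). Eosinophil and mast cell markers were above the median on all arrays of no LPM group (0 of 4 and 0 of 5). The array means of both macrophage marker lists also differed between IL-4c and naive LPM. With IL-4c 21.9% of all genes rose and 15.4% fell in KO, and 22% rose and 19.2% fell in WT. LPM markers had array means of 9.62 to 9.65 in IL-4c KO LPM against 10.58 to 10.70 in naive KO LPM (1 of 9 rose and 4 fell), and 9.50 to 9.64 in IL-4c WT LPM against 10.84 to 10.94 in naive WT LPM (6 of 9 fell). AM markers had 5.57 to 5.93 in IL-4c KO LPM against 4.48 to 4.83 in naive KO LPM (3 of 9 rose and 1 fell), and 5.48 to 5.75 in IL-4c WT LPM against 4.57 to 4.71 in naive WT LPM (2 of 9 rose). The counts of AM markers that rose are close to the shares of all genes, so nothing is read from them. The part of other cells and of these markers in the IL-4c differences was not tested. In sorted bulk samples such as these, fewer cells of a type and less RNA per cell cannot be told apart.

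Pparg starts 6.70 Mb from Bhlhe40 on chromosome 6. In knockout lines a stretch of chromosome around the targeted gene can keep the alleles of the embryonic stem cell donor, and the labels do not say how the lines were backcrossed. The genotype and such a stretch therefore cannot be told apart by these arrays. The 64 tested genes that start within 10 Mb of Bhlhe40, Pparg among them, were set beside all tested genes. Their median absolute mutant minus WT difference was 0.123 in AM (0.126 over all genes), 0.145 in naive LPM (0.136), 0.146 in IL-4c KO LPM (0.163) and 0.157 in IL-4c LysM LPM (0.186).

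Of the 63 genes other than Pparg, 0 were called in AM by limma (3 at an unadjusted p under 0.05), where 0.12% of all genes were. In naive LPM 3 were called (4.76%, beside 1.88% of all genes), in IL-4c KO LPM 3 (4.76%, beside 3.63%) and in IL-4c LysM LPM 5 (7.94%, beside 8.67%). Prok2, a secreted chemoattractant peptide that starts 8.95 Mb on the other side of Bhlhe40, rose by 1.23 in naive KO LPM (adjusted p = 0.027), 2.07 in IL-4c KO LPM (adjusted p = 0.0023) and 2.34 in IL-4c LysM LPM (adjusted p = 0.00053). Camk1, a calcium-dependent kinase 4.67 Mb away, rose by 0.74 in IL-4c KO and 0.56 in IL-4c LysM LPM, and Fancd2, a DNA repair gene, fell (-0.96 in KO and -0.97 in LysM). The Prok2 call in naive KO LPM was lost without any 1 of the WT arrays or KO replicate 1 or 2 (adjusted p of 0.08 to 0.11). In naive KO LPM Vgll4 fell by 0.85 and Eif4e3 by 0.58. In IL-4c LysM LPM Plxnd1 fell by 0.54 and Tmcc1 by 0.51. In naive LPM 0 were called without WT replicate 1 or 2 or KO replicate 1, and 1 without WT replicate 3 or KO replicate 2. In IL-4c KO LPM 1 was called without WT replicate 2 or KO replicate 1. In IL-4c LysM LPM 1 was called without WT replicate 2 or LysM replicate 1, and 3 without WT replicate 1 or LysM replicate 2.

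**Figure D5:**
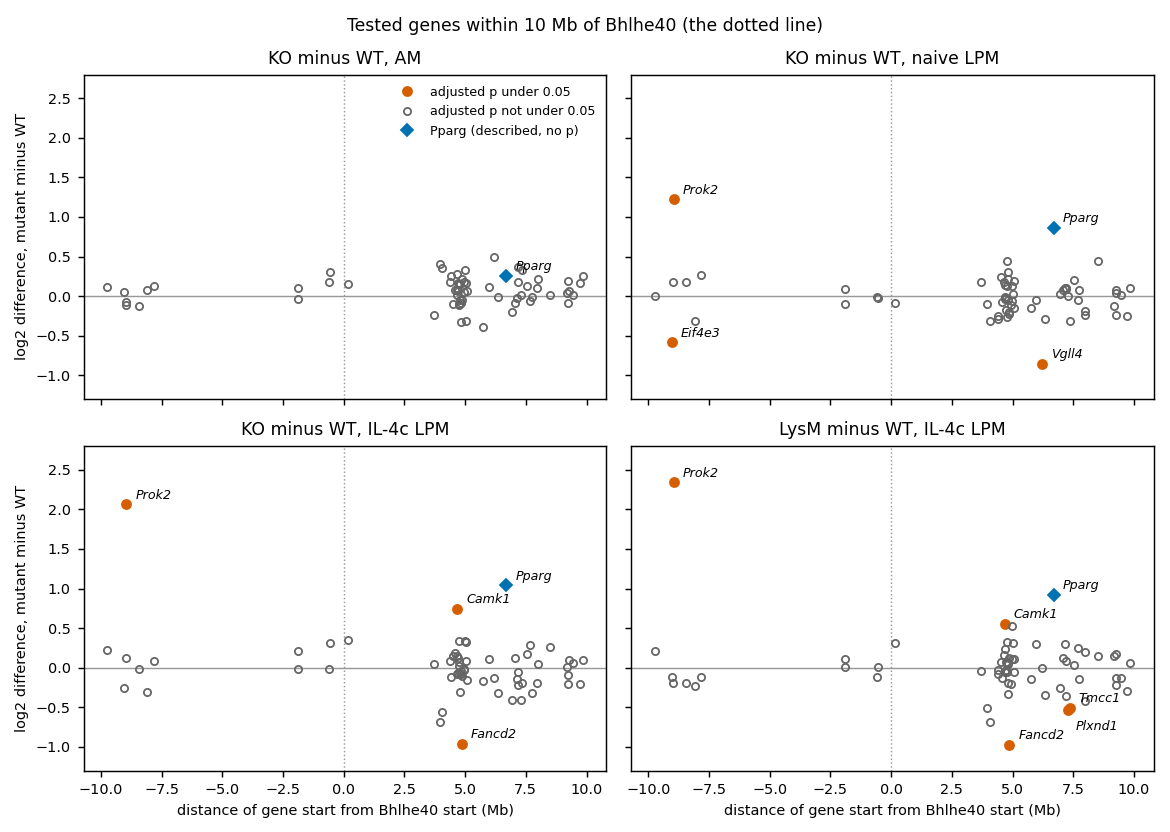
Mutant minus WT difference in log2 signal (vertical axes) of the 64 tested genes within 10 Mb of Bhlhe40 against the distance of their starts from its start in Mb (horizontal axes), 1 panel per comparison. Filled circles have an adjusted p under 0.05, open circles do not, and the blue diamond is Pparg; Pparg at 6.70 Mb and Prok2 at -8.95 Mb stand above their neighbours in the LPM panels.

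Over the 7 group means, the genes whose pattern was most like that of Pparg were Tmem120b (Pearson r = 0.999), Spire1 (0.998) and Cdk14, Slc39a12 and Htra4 (0.997 each). These values are set largely by the difference between AM and LPM. The means of Slc39a12 and Htra4 lay below the array medians in every LPM group. For Ucp1 they were Tonsl (0.990), Dtymk and Spc25 (0.987 each), Arhgap19 (0.986) and Mms22l (0.985). Their means, too, were highest in IL-4c WT LPM, as a choice by likeness to Ucp1 entails. Spc25 averaged 5.95 in IL-4c KO LPM and 5.88 in IL-4c LysM LPM against 6.91 in IL-4c WT LPM. Tonsl averaged 4.14 and 4.10 against 5.08. Its mean lay below the array medians in every group but IL-4c WT LPM, so the filter tied Tonsl to that group. The 7 means share arrays and normalization, and the genes were picked from 11634 for their likeness, so these values are a description only.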

How the data were processed

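The authors deposited log2 signals of 30177 probe sets on 16 one-colour Affymetrix mouse arrays. Per the submitters' processing notes these come from RMA, a method that corrects background, gives all arrays the same distribution and summarises probes, and so hides any change of RNA content per cell. The version is not known here, the file holds no detection calls, and precision is limited by how few arrays there are.

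Groups came from the sample titles. A single symbol was given for 21789 probe sets, several for 1621 and none for 6767; only the first kind was named, and 21698 of it had an Entrez ID in RefSeq's gene table (GRCm38.p6). For a gene with several probe sets the brightest was used. A gene was tested where 2 or more arrays placed it above their median (11634 tested, 8304 left out). Differences, first group minus second, were fitted with limma 3.58.1 in R 4.3.3 with lmFit and eBayes, using the means of the 7 groups and all 16 arrays, with 9 residual and 6.61 prior degrees of freedom and a median within-group SD of 0.171. P-values were Benjamini-Hochberg adjusted over the tested genes of a comparison, with a threshold of 0.05. The fit was tested on simulated data.

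The listed genes, the pathway and marker lists and the rules for naming genes were chosen with earlier results of these data known. Named were the listed genes, from each pathway list at most the 2 largest called rises and 2 largest called falls in a comparison, at most the 4 largest called differences near Bhlhe40, and the 5 genes most like Pparg and Ucp1; Tmcc1 and Plxnd1 complete a count of called genes and fall outside this rule. The hexamer AGGTCA was added to the motifs after the promoters were read. Protein sequences were not used here. Alternatives were leaving out each array, blocking on the replicate number, weighting arrays, fitting only the arrays compared, a robust variance with an intensity trend, averaging probe sets, no filter, centring, and a second quantile normalization. Where leaving out an array left 1 in a group, that array is taken to vary as those of other groups do. Python 3.11.15 with matplotlib 3.10.9 drew the figures.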

Additional observations from a re-analysis of the deposited data

Results flagged for a closer look

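Plin1 was the one gene of the 6 pathway lists whose KO minus WT difference was called as different between IL-4c and naive LPM, at -1.33 (adjusted p = 0.028, limma). It lay below IL-4c WT LPM on 2 of 2 IL-4c KO arrays, as did 24.8% of all tested genes. The interaction call was lost without any 1 of several arrays, as given above.

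For Fabp4 and Fabp5 every KO array lay above the WT arrays in AM and below them in LPM of both treatments. For Ppargc1b and Cd36 the KO arrays lay on opposite sides of the WT arrays in AM and in IL-4c LPM, and overlapped with them in naive LPM. These differences between comparisons were not tested. The KO minus WT difference of Fabp4 was lower in naive LPM than in AM by -0.90 and that of Fabp5 by -0.83. Under IL-4c the difference from AM was -1.17 for Fabp4, -0.63 for Fabp5, -0.61 for Ppargc1b and 0.86 for Cd36. The AM arrays are common to both sets of values, and arrays of 2 genotypes did not overlap for 36.4% of all tested genes in AM and 45.2% in IL-4c LPM. No group held enough arrays for a check of single outlying arrays.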

How the results depend on the processing

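Of the mutant minus WT differences, that of Pparg kept its sign under every alternative in all 4 comparisons (0.22 to 0.31 in AM, 0.71 to 0.99 in naive LPM, 0.88 to 1.20 in IL-4c KO and 0.76 to 1.08 in IL-4c LysM LPM), as did that of Ucp1 in naive and IL-4c LPM. Fabp4 (-0.82 to 0.20), Fabp5 (-0.31 to 0.18) and Ppargc1b (-0.33 to 0.76) in IL-4c LysM LPM changed sign without LysM replicate 2, and Fabp5 in another setting too. Under some setting the sign also turned for Ucp1 (-0.14 to 0.45) and Plin2 (-0.22 to 0.38) in AM. The same held for Cd36 (-0.16 to 0.015) and Ppargc1b (-0.04 to 0.13) in naive LPM. For Ppard it turned in AM and in both IL-4c comparisons. Without single arrays, uncalled values changed sign for Ppard with IL-4c in WT LPM (-0.157 to 0.0303) and in KO LPM (-0.0594 to 0.406), for Ppard between naive LPM and AM in WT (-0.204 to 0.0478), and for Bhlhe40 in IL-4c LysM LPM (-0.203 to 0.0169). Called listed genes with IL-4c in WT LPM were 3, and 5 with only the arrays compared and with array weights. Called pathway genes in naive KO LPM were 1, and 2 with an intensity trend, 5 with array weights and 0 to 1 without single arrays. In IL-4c KO LPM they were 8, and 3 after centring, 4 with no filter, 1 with only the arrays compared, 5 with the replicate block, 5 with array weights and 1 to 6 without single arrays. In IL-4c LysM LPM they were 10, and 5 with only the arrays compared and 5 to 10 without single arrays, and for the interaction with IL-4c 1, and 0 to 2 without single arrays. Called genes near Bhlhe40, Pparg left out (a choice made after seeing the data), were 3 in naive KO LPM (0 to 2 without single arrays), 3 in IL-4c KO LPM (0 with only the arrays compared, 1 to 4 without single arrays) and 5 in IL-4c LysM LPM (3 after centring and with array weights, 1 with only the arrays compared, 1 to 3 without single arrays). The comparison of only 2 against 2 arrays has few residual degrees of freedom; for the other settings the cause was not tested. Calls under every alternative were also counted over the pathway genes picked by the naming rule and the called neighbours, not all of them described above. These were 1 of 11 in IL-4c KO LPM, 5 of 13 in IL-4c LysM LPM and 0 of 4 in naive KO LPM. With IL-4c they were 13 of 16 in WT LPM and 11 of 17 in KO LPM. Between tissues they were 16 of 21 in WT and 16 of 16 in KO. Of all genes called in naive KO LPM, 28.3% were higher, and 45.6% after quantile normalization was applied again. Deviations of same-numbered arrays correlated at -0.139 to 0.066 for naive LPM and -0.071 for AM, and weakly at 0.115 and 0.148 for IL-4c KO and LysM against WT, where Ucp1 was higher and Cd36 lower on replicate 2 in all 3 IL-4c groups. The labels tie no number to a shared mouse or day, so the numbers were not taken to pair the arrays. With the replicate block the Fabp5 difference with IL-4c in WT LPM passed the threshold (0.53, adjusted p = 0.031), and the Pdk4 fall in naive KO LPM did not (adjusted p = 0.065). With 2 arrays in most groups, small differences were not detectable.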
